A study of Homo sapiens with 12 samples.

Results

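The genes described here are the negative feedback genes of the ERK pathway and the ETS factors read with them: the phosphatases DUSP4, DUSP5 and DUSP6, the Sprouty genes SPRY1, SPRY2 and SPRY4, the Sprouty-related genes SPRED1 and SPRED2, and the transcription factors ETV4 and ETV5. They were chosen by name, with earlier results of these data known. All 10 had at least 1 probe set (a group of short probes that reads 1 transcript) with exactly 1 gene symbol, 24 probe sets in all. The array gave 41097 such probe sets and 19775 genes in total. RNA came from U-87 MG, an established human glioma line. Its cells were stably transfected with a short hairpin RNA against p105 (shp105) or with a control hairpin (shControl) and kept for 16 h in 100 uM temozolomide (TMZ) or in DMSO, its vehicle. The 12 arrays fall into 4 groups of 3: shp105 cells with TMZ, shp105 cells with DMSO, shControl cells with TMZ and shControl cells with DMSO. NFKB1 encodes p105, from which the NF-kB subunit p50 is made, and TMZ is a DNA-methylating drug used against glioma.

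All values are deposited log2 levels from RMA, a method that corrects, normalizes and summarises the probes of an array. A difference of 1 on this scale is therefore a doubling of the signal. For a gene with several probe sets, the set with the highest mean over the 12 arrays stood for it. Differences were tested with limma over all 19775 genes, adjusted by the Benjamini-Hochberg method, and a gene is called where its adjusted p was under 0.05. Each line carried 1 hairpin, so effects of losing p105 and any other difference between both stable lines cannot be told apart. The sources used here do not say whether a line was a clone or a pool. They call the replicates biological without saying how they were kept apart, so a p-value here reflects the spread of these arrays and no more.

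ERK is the last kinase of a cascade that runs from growth factor receptors through RAS, RAF and MEK. Active ERK raises transcription of genes whose products shut the cascade down again, and the levels of these transcripts are widely read as a measure of how active the pathway is. The DUSP proteins described here remove phosphate from ERK itself, DUSP6 in the cytoplasm and DUSP4 and DUSP5 in the nucleus. Sprouty proteins act between the receptor and RAF, and SPRED proteins hold back RAS together with neurofibromin. ETV4 and ETV5 are ETS transcription factors that carry receptor signals, above all those of FGF receptors, to their target genes. In glioma, receptor signals into this cascade are among the best known drivers of growth.

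Of the 10 genes, 4 were lower in shp105 than in shControl cells under both treatments, and the promoters of these 4 (DUSP6, SPRY4, SPRY2 and SPRED2) are shown here because they moved together. Each sequence is RefSeq's of build GRCh38.p14, on the gene's own minus strand, and runs 5′ to 3′ from 250 bases before to 50 bases after a transcript start. The windows are DUSP6 at chr12:89352452-89352751, SPRY4 at chr5:142324198-142324497, SPRY2 at chr13:80341077-80341376 and SPRED2 at chr2:65366729-65367028. Capitals mark matches to CCGGAA (an ETS core) or to TGANTCA (the AP-1 site), searched on both strands.
DUSP6: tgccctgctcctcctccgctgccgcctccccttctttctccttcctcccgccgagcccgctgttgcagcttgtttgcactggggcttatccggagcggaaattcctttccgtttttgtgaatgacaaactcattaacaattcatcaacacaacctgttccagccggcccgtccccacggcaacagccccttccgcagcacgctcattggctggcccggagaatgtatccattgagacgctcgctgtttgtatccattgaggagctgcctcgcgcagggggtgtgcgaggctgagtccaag
SPRY4: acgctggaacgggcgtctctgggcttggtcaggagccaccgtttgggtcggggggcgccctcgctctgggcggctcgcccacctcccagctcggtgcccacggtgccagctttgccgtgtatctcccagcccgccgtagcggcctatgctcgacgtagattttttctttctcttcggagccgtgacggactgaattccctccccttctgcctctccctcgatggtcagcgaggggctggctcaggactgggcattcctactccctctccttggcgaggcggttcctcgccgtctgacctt
SPRY2: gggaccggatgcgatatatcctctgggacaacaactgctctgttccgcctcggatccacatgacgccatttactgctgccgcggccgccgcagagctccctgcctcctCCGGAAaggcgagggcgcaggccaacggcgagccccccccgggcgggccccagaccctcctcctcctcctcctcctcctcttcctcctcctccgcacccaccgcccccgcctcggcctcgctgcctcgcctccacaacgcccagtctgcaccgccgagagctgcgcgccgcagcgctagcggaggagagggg
SPRED2: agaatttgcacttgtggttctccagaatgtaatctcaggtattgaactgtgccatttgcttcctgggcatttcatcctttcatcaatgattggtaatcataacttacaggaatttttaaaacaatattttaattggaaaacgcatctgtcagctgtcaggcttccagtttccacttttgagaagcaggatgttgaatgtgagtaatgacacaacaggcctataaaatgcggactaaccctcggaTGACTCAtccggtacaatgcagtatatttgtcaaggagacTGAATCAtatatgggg

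The table of promoters held 10 windows for 6 of the 10 genes, with 3 windows for SPRY2 and 2 for SPRED2. CCGGAA stood in the SPRY2 window shown, 142 bases before the start, and in 1 of the 2 windows of SPRY1. The DUSP6 and SPRY4 windows did not hold CCGGAA. These 6 bases occurred in 17.2% of all 35116 promoter windows of this length. The AP-1 letters stood only in the SPRED2 window shown, once 6 bases before the start and once at position 35 after it. They occurred in 7.71% of all windows. That SPRED2 window has its start inside the gene, at chr2:65366778. The window at the 5′ end of SPRED2 (chr2:65432550-65432849) held none of the motifs searched. The only SPRY4 window also has its start inside the gene, at chr5:142324247, while the gene's 5′ end is at chr5:142325021. No window at the 5′ end of SPRY4 was available. For SPRY2 and SPRED2, with several windows, the one with a match is shown. The 10 windows held neither TGACGTCA (the CRE, in 1.85% of all windows) nor the NF-kB consensus site (in 5.91%). None of the 4 motifs searched was thus shared by the windows of the 4 lower genes. Shorter forms of the ETS site, such as GGAA, were not searched. A match is a match of letters, not a bound site, and the absence of one holds for these windows only.

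After RMA, which normalizes arrays to a common level, array medians lay between 5.04 and 5.09. Their closeness is thus no check of the arrays. Across genes, r was 0.997 to 0.998 within a group and 0.990 to 0.992 between lines, and no 2 arrays were identical. The 27 probe sets for sequences absent from human cells read 2.33 to 4.30, which is taken here as the background range. NFKB1, the targeted gene, averaged 7.16 in shp105 cells against 7.41 in shControl cells with TMZ (difference -0.25, SE 0.07, adjusted p = 0.0204). With DMSO it averaged 7.20 in shp105 cells against 7.32 in shControl cells (-0.12, SE 0.07, adjusted p = 0.260). Leaving out replicate 1 (adjusted p = 0.0600) or 3 (0.0585) of the shp105 arrays with TMZ, or replicate 1 (0.0903) or 2 (0.0684) of the shControl arrays with TMZ, ended the call. Of 8 glial and glioma markers, VIM and CD44 read 12.58 or more on every array, while GFAP (4.94 to 5.36), S100B (3.25 to 3.79) and SOX2 (4.90 to 5.32) were low. The leukocyte markers PTPRC and CD14, the epithelial marker CDH1 and the endothelial marker CDH5 read 2.66 to 3.91, within the background range. The other 4 of these 8 markers, CD3E, EPCAM, KRT5 and PECAM1, read 4.61 to 6.14, and EPCAM was lower in shp105 cells (-0.45, SE 0.11, adjusted p = 0.0129 in TMZ, and -0.39, SE 0.11, adjusted p = 0.0299 in DMSO). The part of other cells in the results was not tested. The 18 hybridization spike-in probe sets, which read RNA added equally to each array, averaged 11.32 in shp105 and 10.95 in shControl arrays with TMZ, and 11.13 in shp105 and 10.63 in shControl arrays with DMSO. The GAPDH 3′ minus 5′ difference, a sign of RNA quality, averaged 0.40 in shp105 and 0.30 in shControl arrays with TMZ, and 0.36 in shp105 and 0.25 in shControl arrays with DMSO. The same difference for ACTB was wider, at 3.06 in shp105 and 2.85 in shControl arrays with TMZ, and 3.07 in shp105 and 3.02 in shControl arrays with DMSO.

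Between the lines, the feedback genes split. DUSP6, SPRY4, SPRY2 and SPRED2 were lower in shp105 cells, by 1.26 to 0.34 log2 units in TMZ, while ETV4 was higher by 0.30. In TMZ, 5 of the 10 genes were called (1 higher, 4 lower), beside 21.1% of all genes, 10.1% of them higher and 11% lower. In DMSO, 6 were called (2 higher, 4 lower), beside 19.9% of all genes, 8.34% higher and 11.6% lower. The median difference of the 10 genes was -0.15 in TMZ and -0.11 in DMSO, while that of all genes was -0.01 under either treatment. The calls made under both treatments were those of DUSP6, SPRY4, SPRY2, SPRED2 and ETV4. In RNA from whole cultures, fewer cells of a type and less RNA per cell cannot be told apart.

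**Figure D1:**
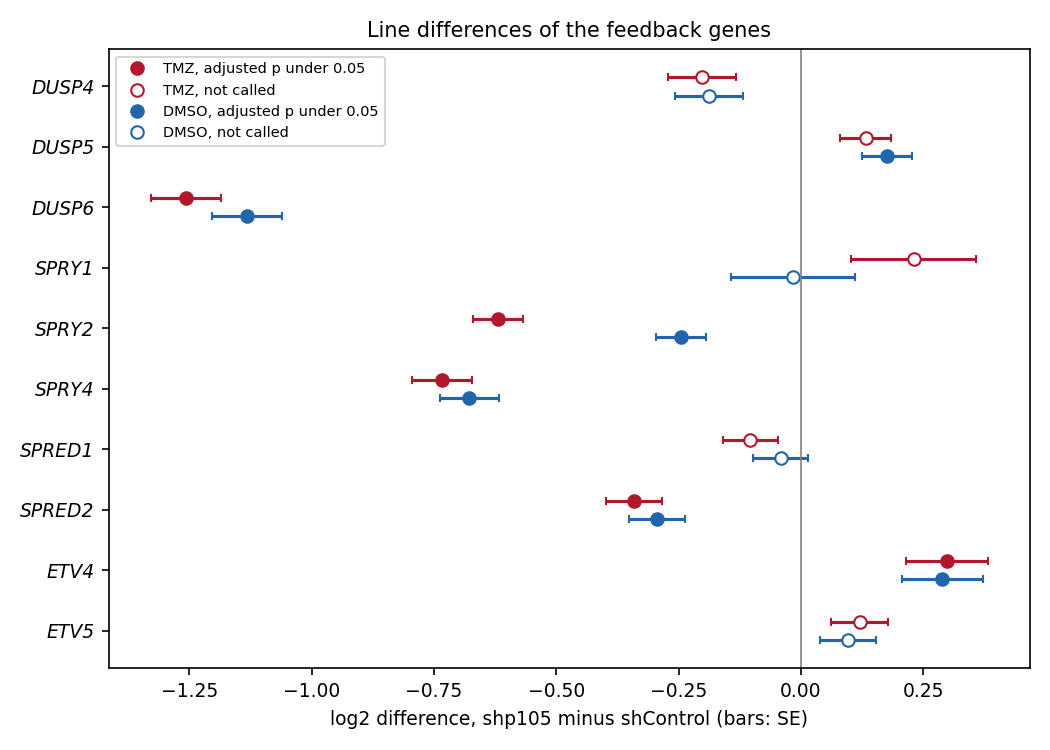
Differences between shp105 and shControl cells (x axis, log2) for the 10 genes in TMZ (red) and DMSO (blue), with bars of 1 SE and filled points for adjusted p under 0.05. DUSP6 lies farthest to the left, at -1.26 in TMZ and -1.13 in DMSO, and ETV4 farthest to the right in DMSO at 0.29.

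Among the phosphatases, DUSP6 had the widest line difference. It read 8.97, 8.89 and 8.88 in shp105 cells with TMZ and 9.19, 9.35 and 9.28 with DMSO, against 10.19, 10.07 and 10.25 in shControl cells with TMZ and 10.40, 10.52 and 10.30 with DMSO. Every shp105 array thus lay below every shControl array, and no 2 neighbouring groups overlapped. The difference was -1.26 in TMZ (SE 0.07, adjusted p = 2.01e-07), a 2.39-fold lower signal, and -1.13 in DMSO (SE 0.07, adjusted p = 4.80e-07), a 2.19-fold lower one. By p, DUSP6 ranked 117th of all genes in TMZ and 157th in DMSO. Its other 2 probe sets read the same direction, at -1.19 and -1.08 in TMZ and -1.05 and -0.95 in DMSO, and each passed the test over the 41097 probe sets. The call held in 16 of 16 alternative analyses under either treatment.

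DUSP4 and DUSP5, the nuclear phosphatases, had narrower line differences than DUSP6. DUSP4 read 9.03, 9.03 and 8.95 in shp105 cells with TMZ and 9.04, 8.93 and 9.03 with DMSO, against 9.14, 9.26 and 9.21 in shControl cells with TMZ and 9.31, 9.20 and 9.05 with DMSO. The lines did not overlap under either treatment, but the differences of -0.20 in TMZ (SE 0.07, adjusted p = 0.0609) and -0.19 in DMSO (SE 0.07, adjusted p = 0.0842) did not pass. Without shControl_DMSO replicate 3, the DMSO difference was -0.26 and passed (adjusted p = 0.0231). A dimmer DUSP4 probe set passed over all probe sets, at -0.30 in TMZ (SE 0.06, adjusted p = 0.00475) and -0.36 in DMSO (SE 0.06, adjusted p = 0.00141), where 15.4% and 14.4% of all probe sets passed. The remaining DUSP4 set was at -0.04 and -0.10 and did not pass. Read from the mean of its 3 probe sets, DUSP4 passed under both treatments (-0.18, adjusted p = 0.0160 in TMZ and -0.22, adjusted p = 0.00569 in DMSO). The brightest set itself passed with genes below the median level left out (adjusted p = 0.0197 in TMZ and 0.0283 in DMSO), with trend and robust fitting (0.0157 in TMZ and 0.0256 in DMSO) and, in TMZ, after quantile normalization (0.0395). The call on DUSP4 thus turned on the probe set, the filter, the variance model and the normalization, with the difference below 0 in all 16 alternatives.

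DUSP5 ran the other way. It read 9.02, 8.98 and 8.99 in shp105 cells with TMZ and 9.16, 9.27 and 9.14 with DMSO, against 8.86, 8.85 and 8.90 in shControl cells with TMZ and 9.07, 8.96 and 9.01 with DMSO. The shp105 arrays lay above the shControl arrays of the same treatment. The difference passed in DMSO (0.18, SE 0.05, adjusted p = 0.0320) and not in TMZ (0.13, SE 0.05, adjusted p = 0.0969). Leaving out replicate 1 (adjusted p = 0.0577) or 2 (0.118) of the shp105 arrays with DMSO, or replicate 2 (0.112) or 3 (0.0843) of the shControl arrays with DMSO, ended the DMSO call. It held in 6 of 16 alternatives.

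**Figure D2:**
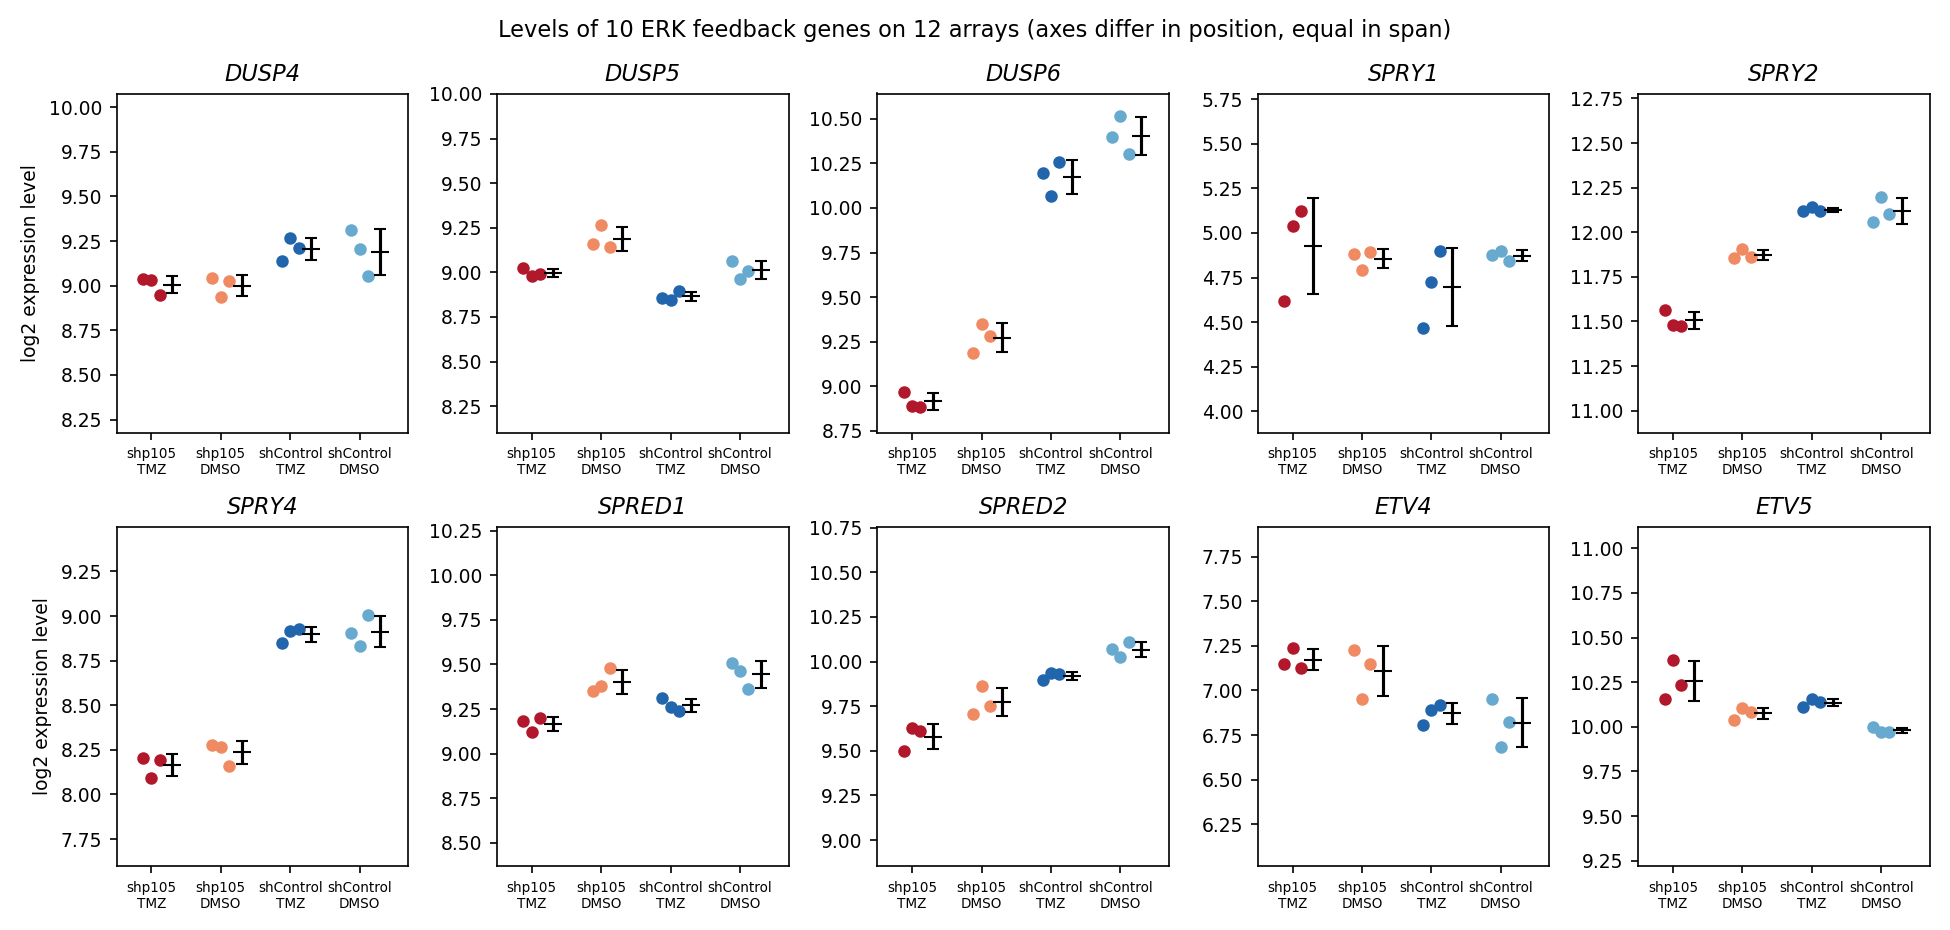
Log2 level of each of the 10 genes (y axis) on the 12 arrays, with 1 point per array and, beside each group, its mean and SD (n = 3). Axes differ in position but span the same log2 range, so that the fall of DUSP6, SPRY4 and SPRY2 in both shp105 groups, and of SPRY2 most in shp105 cells with TMZ, can be set against the panel of SPRY1, whose groups overlap.

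Of the Sprouty genes, SPRY4 and SPRY2 were lower in shp105 cells and SPRY1 was not called. SPRY4 read 8.21, 8.09 and 8.19 in shp105 cells with TMZ and 8.28, 8.27 and 8.16 with DMSO, against 8.85, 8.91 and 8.93 in shControl cells with TMZ and 8.90, 8.83 and 9.01 with DMSO. Both lines were well apart and the treatments of 1 line overlapped. The difference was -0.73 in TMZ (SE 0.06, adjusted p = 5.01e-06), a 1.66-fold lower signal, and -0.68 in DMSO (SE 0.06, adjusted p = 9.44e-06), a 1.60-fold lower one. Both calls held in 16 of 16 alternatives. SPRY4 was read by 1 probe set, so averaging or separating probe sets could not change its difference.

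SPRY2, also read by 1 probe set, was lower in shp105 cells under both treatments. It read 11.56, 11.48 and 11.48 in shp105 cells with TMZ and 11.86, 11.90 and 11.86 with DMSO, against 12.12, 12.14 and 12.12 in shControl cells with TMZ and 12.06, 12.20 and 12.10 with DMSO. The 3 shp105 arrays with TMZ were the lowest, the 3 with DMSO lay between, and both shControl groups overlapped at the top. The line difference was -0.62 in TMZ (SE 0.05, adjusted p = 5.11e-06), a 1.54-fold lower signal, and -0.25 in DMSO (SE 0.05, adjusted p = 0.00507), a 1.19-fold lower one. The call in TMZ held in 16 of 16 alternatives and that in DMSO in 15 of 16. As for SPRY4, averaging or separating probe sets could not change the SPRY2 difference.

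SPRY1 was read by 2 dim probe sets. The brighter one read 4.62, 5.04 and 5.12 in shp105 cells with TMZ and 4.88, 4.79 and 4.89 with DMSO, against 4.47, 4.72 and 4.90 in shControl cells with TMZ and 4.88, 4.90 and 4.84 with DMSO. All groups overlapped, just above the background range. Neither line difference passed (0.23, SE 0.13, adjusted p = 0.245 in TMZ, and -0.02, SE 0.13, adjusted p = 0.961 in DMSO). The 95% interval of the TMZ difference ran from -0.05 to 0.51, so a small rise or no difference are both within it. Its second probe set had differences of the opposite sign, -0.06 in TMZ (SE 0.12, adjusted p = 0.817) and 0.06 in DMSO (SE 0.12, adjusted p = 0.834). Without shp105_TMZ replicate 1 the TMZ difference of the brighter set was 0.38 and passed (adjusted p = 0.0259).

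Of the SPRED genes, SPRED2 was lower in shp105 cells and SPRED1 was not called. SPRED2 read 9.50, 9.63 and 9.61 in shp105 cells with TMZ and 9.71, 9.86 and 9.75 with DMSO, against 9.90, 9.93 and 9.93 in shControl cells with TMZ and 10.07, 10.03 and 10.11 with DMSO. The 4 groups did not overlap, in the same order as those of DUSP6. The difference was -0.34 in TMZ (SE 0.06, adjusted p = 0.00111) and -0.29 in DMSO (SE 0.06, adjusted p = 0.00316). The other 2 SPRED2 probe sets read 3.16 to 3.82, within the background range, and showed no such difference. With the mean of all 3 sets in place of the brightest, the differences were -0.08 (adjusted p = 0.403) in TMZ and -0.14 (adjusted p = 0.117) in DMSO. Each call held in 14 of 16 alternatives, the other loss being with each array's spike-in level added to the fit.

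SPRED1 read 9.18, 9.12 and 9.20 in shp105 cells with TMZ and 9.35, 9.38 and 9.48 with DMSO, against 9.31, 9.26 and 9.24 in shControl cells with TMZ and 9.51, 9.46 and 9.36 with DMSO. The lines overlapped in DMSO and lay just apart in TMZ. The differences of -0.10 in TMZ (SE 0.06, adjusted p = 0.244) and -0.04 in DMSO (SE 0.06, adjusted p = 0.709) did not pass, with 95% intervals of -0.23 to 0.02 and -0.17 to 0.08. All 3 SPRED1 probe sets were below 0 in both comparisons and none passed. The widest was that of the dimmest set (mean level 4.78, near the background range), at -0.30 in TMZ. Its 95% interval of -0.63 to 0.02 holds the SPRED2 difference of -0.34, while the interval of the brightest SPRED1 set does not. No test compared SPRED1 with SPRED2.

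Of the ETS factors, ETV4 was higher in shp105 cells and ETV5 was not called. ETV4 read 7.15, 7.24 and 7.13 in shp105 cells with TMZ and 7.23, 6.95 and 7.15 with DMSO, against 6.81, 6.89 and 6.92 in shControl cells with TMZ and 6.95, 6.68 and 6.82 with DMSO. Each shp105 group lay above the shControl group of its treatment, in DMSO by the narrowest of margins. The difference was 0.30 in TMZ (SE 0.08, adjusted p = 0.0237) and 0.29 in DMSO (SE 0.08, adjusted p = 0.0291). The TMZ call did not outlast leaving out shp105 replicate 2 (adjusted p = 0.0776), shControl replicate 1 (0.0893) or shControl replicate 2 (0.0537). The DMSO call did not outlast leaving out shp105 replicate 1 (0.119) or 3 (0.0902), or shControl replicate 2 (0.115) or 3 (0.0720). A dimmer ETV4 probe set was at 0.08 in TMZ and -0.03 in DMSO and did not pass. With both sets averaged, ETV4 was at 0.19 in TMZ (adjusted p = 0.0450) and 0.13 in DMSO (adjusted p = 0.177).

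ETV5 read 10.16, 10.38 and 10.23 in shp105 cells with TMZ and 10.04, 10.10 and 10.08 with DMSO, against 10.11, 10.15 and 10.14 in shControl cells with TMZ and 10.00, 9.97 and 9.97 with DMSO. All 4 groups were apart, yet the line differences of 0.12 in TMZ (SE 0.06, adjusted p = 0.179) and 0.10 in DMSO (SE 0.06, adjusted p = 0.312) did not pass. Of the 5 ETV5 probe sets, 4 were above 0 in each comparison, and 1 dimmer set passed in TMZ (0.32, SE 0.07, adjusted p = 0.00969).

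**Figure D3:**
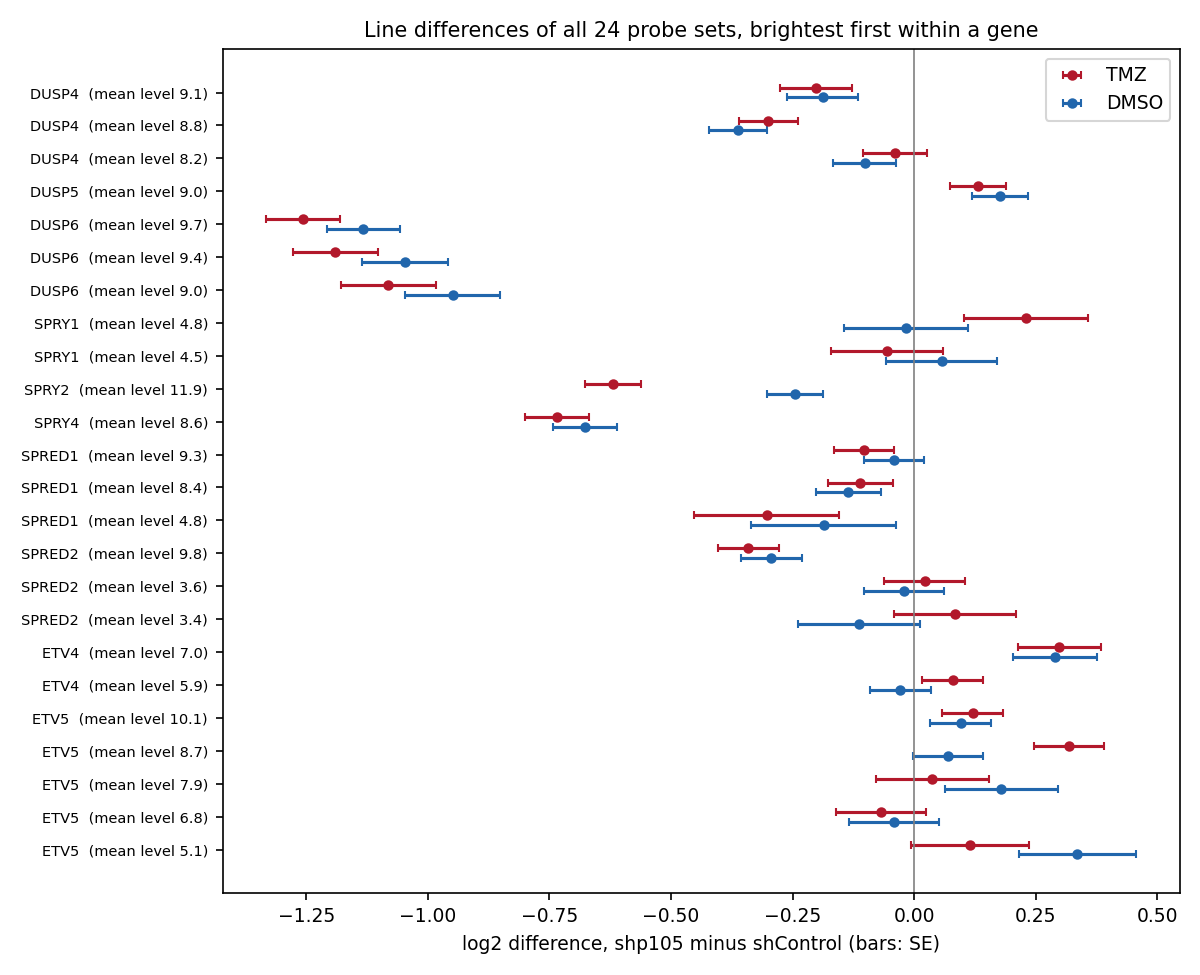
Differences between shp105 and shControl cells (x axis, log2, bars of 1 SE) for all 24 probe sets of the 10 genes in TMZ (red) and DMSO (blue), with each set's mean level beside the gene's name. The 3 DUSP6 sets lie together between -1.26 and -0.95, while the dim sets of SPRED2 lie around 0.

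The spike-in level and the GAPDH and ACTB differences given for the arrays were higher in shp105 than in shControl arrays under both treatments. With the spike-in level of each array as a covariate, 1045 of all genes were called in TMZ and 523 in DMSO. Of the 10 feedback genes, 3 were called in TMZ and 2 in DMSO. Those calls were of DUSP6 (-1.18 in TMZ and -1.02 in DMSO), of SPRY4 (-0.76 in TMZ and -0.72 in DMSO) and, in TMZ, of SPRY2 (-0.61). SPRY2 in DMSO kept its difference (-0.24) without passing (adjusted p = 0.492), and SPRED2 had -0.24 in TMZ (adjusted p = 0.288) and -0.16 in DMSO (adjusted p = 0.708). ETV4 went to 0.02 in TMZ (SE 0.13, adjusted p = 0.969) and to -0.09 in DMSO (SE 0.17, adjusted p = 0.894), which turned its direction. DUSP4 moved the other way, to -0.39 in TMZ (SE 0.12, adjusted p = 0.111) and -0.43 in DMSO (SE 0.15, adjusted p = 0.217), about 2 times its difference without the covariate. The spike-in level itself differed between the lines, so the covariate widened the SE, which for ETV4 was 0.08 without it. A call lost beside the covariate therefore need not mean a smaller difference. The part of RNA quality in these differences was not tested.

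Fewer of the feedback genes were called for TMZ than between the lines. In shp105 cells, SPRY2 and DUSP6 fell with TMZ and no gene rose, so 2 of the 10 were called, beside 0.865% of all genes (0.647% higher and 0.217% lower). The median difference of the 10 genes was -0.13, against 0.01 over all genes. In shControl cells limma called 0 of the 10, beside 0.369% of all genes, and the median was -0.08, against 0.00 over all genes. At an unadjusted p under 0.05, 5 of the 10 passed in shControl cells (1 higher, 4 lower), beside 11% of all genes, and 6 in shp105 cells (1 higher, 5 lower), beside 16.3%. limma with trend and robust fitting called 1 of the 10, DUSP6, in shControl cells, beside 358 of all genes (73 in the main fit). It called 6 of the 10 in shp105 cells, beside 937 of all genes (171 in the main fit).

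SPRY2 had a TMZ response in shp105 cells close in size to that of DUSP6, while in shControl cells its response was the nearest to 0 of the 10 genes. In shp105 cells it averaged 11.51 with TMZ against 11.87 with DMSO (-0.37, SE 0.05, adjusted p = 0.00924), and the arrays did not overlap. In shControl cells it averaged 12.12 with TMZ against 12.12 with DMSO (0.01, SE 0.05, adjusted p = 0.983), with a 95% interval from -0.11 to 0.12. The call in shp105 cells held in 14 of 16 alternatives, with adjusted p of 0.151 from the 6 shp105 arrays alone and of 0.121 beside the spike-in covariate. The difference remained between -0.39 and -0.35 in all 16.

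DUSP6 averaged 8.92 with TMZ against 9.27 with DMSO in shp105 cells (-0.36, SE 0.07, adjusted p = 0.0461). In shControl cells it averaged 10.17 with TMZ against 10.41 with DMSO (-0.23, SE 0.07, adjusted p = 0.259). The arrays with TMZ lay below those with DMSO in both lines. The shp105 call was lost on leaving out any 1 of its 6 arrays: shp105_TMZ replicate 1 (0.0583), 2 (0.115) or 3 (0.110), or shp105_DMSO replicate 1 (0.0732), 2 (0.152) or 3 (0.113). It held in 3 of 16 alternatives, with differences between -0.40 and -0.29.

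The other 8 genes were not called in either line. DUSP5, SPRED1 and SPRED2 had TMZ arrays below the DMSO arrays in both lines without overlap, at -0.19, -0.24 and -0.19 in shp105 cells (adjusted p = 0.101, 0.0731 and 0.128) and -0.15, -0.17 and -0.15 in shControl cells (adjusted p = 0.319, 0.284 and 0.366). ETV5 had TMZ arrays above the DMSO arrays in both lines, at 0.18 in shp105 cells (adjusted p = 0.161) and 0.16 in shControl cells (adjusted p = 0.347). Other probe sets of SPRED1 and SPRED2 read otherwise. With probe sets averaged, SPRED1 was at -0.08 in shp105 and -0.02 in shControl cells. SPRED2, whose other sets lay in the background range, was at 0.03 and -0.03. The dimmest SPRED1 set was above 0, at 0.12 in shp105 and 0.24 in shControl cells. The share of all genes whose groups do not overlap was not counted for any comparison. DUSP4, SPRY4, SPRY1 and ETV4 had overlapping arrays in both lines. Of these, SPRY4, with its clear line difference, was at -0.07 in shp105 cells (95% interval -0.21 to 0.06) and -0.02 in shControl cells (-0.15 to 0.12).

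**Figure D4:**
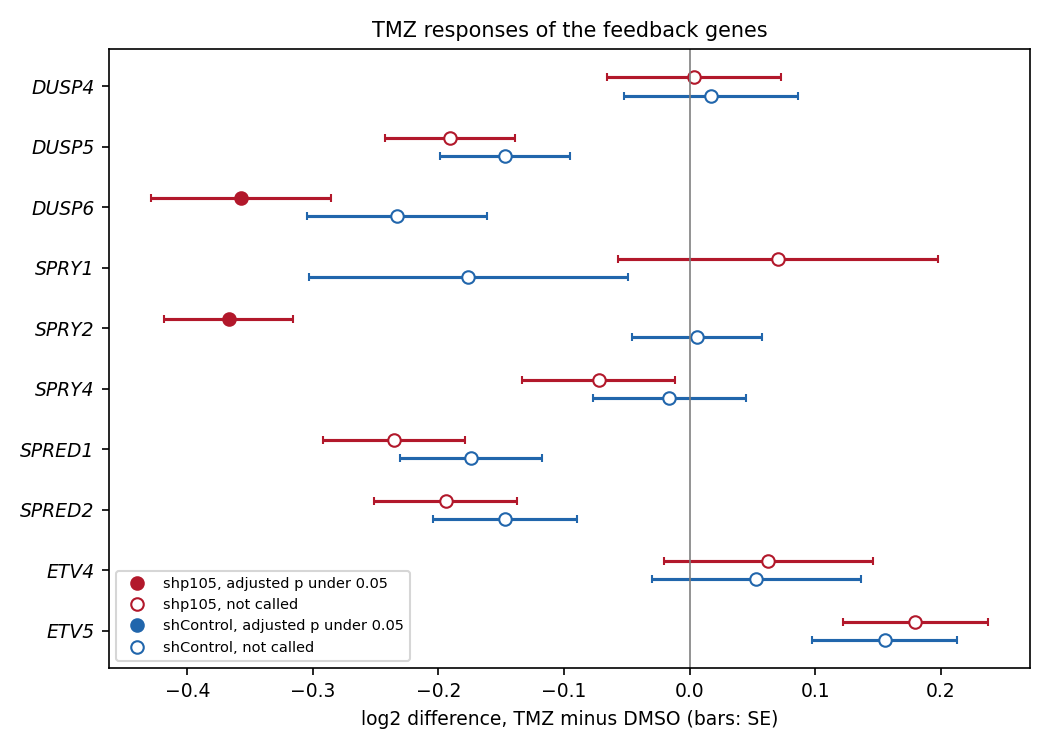
TMZ minus DMSO (x axis, log2, bars of 1 SE) for the 10 genes in shp105 cells (red) and shControl cells (blue), with filled points for adjusted p under 0.05. SPRY2 lies at -0.37 in shp105 cells and at 0.01 in shControl cells, and the other genes lie closer together in both lines.

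Whether the lines differed in their response to TMZ was tested directly, as the response of shp105 cells minus that of shControl cells. This comparison uses the same 12 arrays as those above. limma called 0 of the 10 genes and 0% of all genes, and at an unadjusted p under 0.05 it passed 1 of the 10 and 1266 of 19775 genes. The 1 gene was SPRY2, at -0.37 (SE 0.07, 95% interval -0.53 to -0.21, unadjusted p = 0.000293, adjusted p = 0.360), the 16th smallest p of all genes. limma with trend and robust fitting called SPRY2 (-0.37, adjusted p = 0.00203) and 12 genes in all. Over the 21 alternatives the SPRY2 difference lay between -0.41 and -0.34, with adjusted p from 0.00203 to 0.656. DUSP6 was at -0.12 (SE 0.10, adjusted p = 0.887), and its interval of -0.35 to 0.10 holds both 0 and a difference as wide as its own TMZ response in shControl cells. The remaining 8 genes lay between -0.06 and 0.25, with adjusted p of 0.877 or more.

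Only DUSP6, SPRY4 and SPRY2 had group means that spanned 0.5 log2 units or more, at 1.49, 0.75 and 0.62. For these, the 3 genes with the most similar pattern were found by the root mean square distance between the 4 group means, each gene centred on its own mean. With only 4 group means a near match is easily had, and the distance is a description. Nearest to DUSP6 were TENM1 (0.064), CDK15 (0.080) and CPNE4 (0.081). Nearest to SPRY2 were CPQ (0.031), WNT5A, a Wnt ligand, (0.036) and ZCCHC18 (0.038). Nearest to SPRY4 were IER3 (0.017), an early response gene that is also an ERK substrate, HLA-DQB1 (0.017) and INTS6L (0.018). WNT5A, for one, had -0.54 between the lines in TMZ and -0.23 in DMSO, and TMZ responses of -0.29 in shp105 cells (adjusted p = 0.0504) and 0.02 in shControl cells.

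The calls in 5 lists of other ERK pathway genes stand beside 10.1% of all genes higher and 11% lower in TMZ, and 8.34% higher and 11.6% lower in DMSO. No test compared a list with all genes or with another list. The lists, too, were chosen with earlier results of these data known. Of 14 other outputs analysed here, 8 were lower and 1 higher in shp105 cells in TMZ (median -0.34), and 7 lower and 1 higher in DMSO (median -0.27). Among them the immediate early factor EGR1 was at -1.10 in TMZ (SE 0.08) and -0.65 in DMSO (SE 0.08), and IER3 at -0.74 and -0.69 (SE 0.06 each). The receptor EPHA4 averaged 3.64 in shp105 against 6.32 in shControl cells with TMZ, and 3.53 in shp105 against 6.24 in shControl cells with DMSO. Its shp105 means lay inside the background range, so its signal was at least 4.05-fold lower in TMZ and at least 3.82-fold lower in DMSO, counted from the top of that range. With its probe sets averaged, EPHA4 was at -1.11 in TMZ and -1.05 in DMSO. The DMSO call of EGR1 was lost with the spike-in covariate (adjusted p = 0.215), and all other calls of these 3 genes held in every alternative that gave them a value. The higher one was EPHA2, a receptor, at 0.42 in TMZ and 0.53 in DMSO.

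Of 13 other negative regulators, 3 were higher and 3 lower in TMZ, and 3 higher and 2 lower in DMSO. DUSP10, a phosphatase that prefers the stress kinases JNK and p38, was higher by 0.52 in TMZ (SE 0.05, adjusted p = 2.90e-05), and DUSP1 by 0.29 (SE 0.06, adjusted p = 0.00270). The DUSP1 call was lost with its probe sets averaged (0.17, adjusted p = 0.0848) and beside the spike-in covariate (adjusted p = 0.308). ERRFI1 was higher under both treatments, over the alternatives by 0.24 to 0.33 in TMZ and 0.35 to 0.39 in DMSO. Each ERRFI1 call held in 15 of 16 alternatives and was lost beside the spike-in covariate. IL17RD, a membrane antagonist of FGF signals that is known with the Sprouty genes, was lower by 0.47 in TMZ (SE 0.10, adjusted p = 0.00543) and by 0.53 in DMSO (SE 0.10, adjusted p = 0.00279). Both IL17RD calls were lost beside the spike-in covariate (adjusted p = 0.402 in TMZ and 0.590 in DMSO), and the TMZ difference was -0.28 with its probe sets averaged. Of 15 ligands, 1 was higher and 4 lower in TMZ and 2 higher and 4 lower in DMSO, led by the EGF receptor ligand EREG at -1.59 in TMZ and -1.39 in DMSO (SE 0.10 each). Of 12 receptors, 2 were higher and 2 lower in TMZ and 2 higher and 1 lower in DMSO, led by AXL at 0.64 in TMZ and 0.71 in DMSO (SE 0.05 each). Of 16 genes of the cascade between receptor and ERK, 2 were higher and 1 lower in TMZ and 1 higher and 2 lower in DMSO, each call being lost in 6 or more of 16 alternatives. These 3 of 16 cascade genes lie near the 21.1% of all genes called in TMZ and the 19.9% in DMSO, so nothing is read from them about the cascade. The calls of EREG and AXL held in 16 of 16 alternatives under both treatments, with EREG at -0.88 in TMZ and -0.73 in DMSO when its probe sets were averaged. DUSP10 in shp105 cells (0.31, adjusted p = 0.0247) and the ligand gene TGFA in shControl cells (0.36, adjusted p = 0.0257) were the only genes of these lists called for TMZ, each call in 6 of 16 alternatives. The DUSP10 call did not outlast leaving out shp105_TMZ replicate 2 (adjusted p = 0.0730) or 3 (0.0583), or shp105_DMSO replicate 1 (0.0703), 2 (0.106) or 3 (0.0780). The TGFA call was lost without shControl_TMZ replicate 2 (0.129) or 3 (0.104) and without any 1 of the 3 shControl_DMSO arrays, with the lowest of these at 0.0880.

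**Figure D5:**
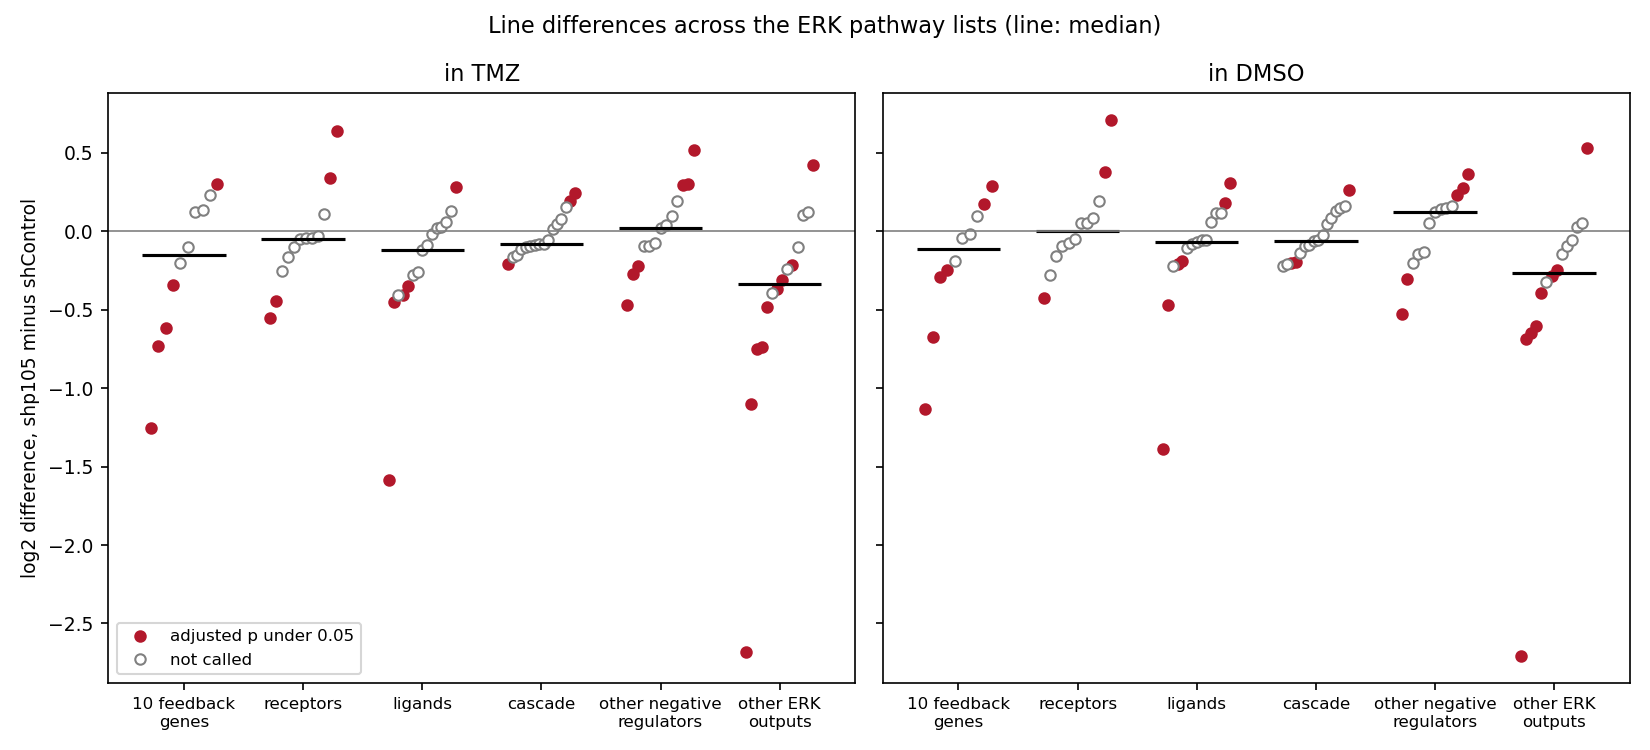
Differences between shp105 and shControl cells (y axis, log2) for the 10 feedback genes and 5 lists of other ERK pathway genes, in TMZ (left) and DMSO (right), with red points for adjusted p under 0.05 and a line at each list's median. The other ERK outputs have the lowest medians, -0.34 in TMZ and -0.27 in DMSO, and the cascade list lies closest together.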

How the data were processed

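RNA of 12 U-87 MG cultures was read on 12 expression arrays. The values are the authors' deposited log2 levels per probe set, made with RMA and Affymetrix Power Tools per the submitters' processing notes. For their versions and background settings, the sources used here give nothing. Probe sets were named through the platform's probe table and RefSeq's gene table (GRCh38.p14): 41097 had 1 symbol, 1801 several and 11777 none, and 54 kept the probe table's symbol.

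The probe set with the highest mean over the 12 arrays stood for a gene (19775 genes, no filter). All 5 comparisons came from 1 limma fit of 4 group means (limma 3.58.1, R 4.3.3, 2-sided, Benjamini-Hochberg over all genes, called under 0.05). Errors are the fit's SE, n = 3 per group, and the number of arrays limits precision. The fit was tested on simulated data. The 10 genes, the lists and the tests were chosen with earlier results of these data known. Named beyond the 10 genes were NFKB1, at most 4 called genes per list by smallest p, and the 3 nearest patterns of genes spanning 0.5 or more. Alternatives changed the gene summary, dim-gene filter, normalization, variance model, arrays fitted, replicate block, threshold, spike-in covariate and each array left out. Plots used matplotlib 3.10.9.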

Additional observations from a re-analysis of the deposited data

How the results depend on the processing

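Under 16 alternatives per comparison (21 for the difference of responses), the line calls of DUSP6 and SPRY4 and the TMZ line call of SPRY2 held in all. Counts are given as called among the 10 feedback genes, then among all genes (or, with each probe set on its own, among all 41097 probe sets). Without genes below the median level, fewer genes were tested in all, and SPRY1 was not among them. For TMZ in shp105 cells (main 2 and 171), the counts were 1 and 132 with probe sets averaged per gene. They were 1 and 96 with each probe set on its own, and 6 and 904 without genes below the median level. They were 1 and 119 with median centring, 3 and 237 with quantile normalization, and 6 and 937 with trend and robust fitting. With only the compared groups they were 0 and 2, at 0.01 they were 1 and 39, and with the spike-in covariate 0 and 13. For TMZ in shControl cells (main 0 and 73), the counts of all genes were 45 with the mean of probe sets, 291 without dim genes, 43 with median centring, 358 with trend and robust fitting (1 feedback gene), 19 with only the compared groups, 15 at 0.01 and 0 with the spike-in covariate. For the difference of responses (main 0 and 0), 8 genes passed without dim genes, and 1 and 12 with trend and robust fitting. Between the lines (main 4166 genes in TMZ and 3937 in DMSO, 21.1% and 19.9%), 6317 and 5935 probe sets passed with each on its own, a lower share of 15.4% and 14.4%. The genes called were 2566 and 2439 at 0.01, and 1045 and 523 with the spike-in covariate, where 3 and 2 feedback genes were called. Leaving out 1 array gave 4 to 6 feedback genes and 3219 to 3778 genes for the lines in TMZ, 4 to 6 and 3042 to 3369 in DMSO, 1 and 49 to 188 for TMZ in shp105 cells, 0 and 16 to 29 in shControl cells, and 0 and 0 for the difference of responses. Directions turned for ETV4 between the lines in DMSO (-0.088) and IGF1R in DMSO (0.030), both with the spike-in covariate, and for FGF1 in TMZ with the mean of its probe sets (0.061), and the cause was not tested. Deviations from group means were compared between arrays of different groups. Arrays with the same replicate number had r from -0.14 to 0.12 (18 pairs, median 0.019). Those with different numbers had r from -0.20 to 0.26 (36 pairs, median -0.002). With 3 arrays per group, these values cannot tell whether equal numbers mark arrays handled together. With the replicate block, 5 feedback genes were called between the lines in either treatment, beside 3885 of all genes in TMZ and 3677 in DMSO. For TMZ it called 1 in shp105 cells (84 of all genes) and 0 in shControl cells (30 of all genes). For the difference of responses it called 0 feedback genes and 0 of all genes. Over single genes, 176 alternative values fell short of a threshold the main analysis passed, 21 passed one it missed and 3 called values turned direction. Differences that were not called changed sign too, such as that of DUSP4 for TMZ in shp105 cells, in 5 of 16 alternatives, and that of SPRY1 between the lines in DMSO, in 3 of 16. The 3 arrays per group limit which small differences could be called, and levels in the background range set no direction.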

Other observations

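SPRY4-IT1, a non-coding RNA named after the SPRY4 locus, followed SPRY4 between the lines. Its brighter probe set averaged 7.50 in shp105 against 7.89 in shControl cells with TMZ (-0.38, SE 0.07, adjusted p = 0.00212 by limma), and 7.55 in shp105 against 7.97 in shControl cells with DMSO (-0.42, SE 0.07, adjusted p = 0.00122). Neither line called it for TMZ (-0.05 in shp105 cells, adjusted p = 0.789, and -0.08 in shControl cells, adjusted p = 0.725). Its dimmer probe set averaged 4.35 in shp105 against 4.43 in shControl cells with TMZ, near the background range. It was looked at because of its name after the SPRY4 values were seen.

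Of the glioma markers, CHI3L1, a secreted glycoprotein, averaged 7.42 in shp105 against 4.46 in shControl cells with TMZ, and 6.91 in shp105 against 4.71 in shControl cells with DMSO (2.96 and 2.21, SE 0.13 each). OLIG2, a transcription factor of glial progenitors, averaged 5.38 in shp105 against 4.02 in shControl cells with TMZ, and 5.27 in shp105 against 4.05 in shControl cells with DMSO. The shControl means of OLIG2 lay inside the background range, so it was at least 2.12-fold higher in TMZ and at least 1.96-fold higher in DMSO. CD44 was lower in shp105 cells, at 12.63 against 12.95 in TMZ (-0.32, SE 0.05) and 12.74 against 12.99 in DMSO (-0.25, SE 0.05). Their part in the feedback gene results was not tested.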
